A study of Mus musculus with 120 samples.

Results

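The Cyp4a genes encode cytochrome P450 enzymes that hydroxylate fatty acids at the omega end, and 5 of them were followed here across the livers of 60 mice labelled male: Cyp4a10, Cyp4a12a, Cyp4a12b, Cyp4a14 and Cyp4a31. Of the 45037 probe sets on the array 5 carry 1 or more of these symbols, and 3 of the 5 genes are among the 18193 that have a probe set of their own. The members were chosen by gene symbol after Cyp4a14 had stood out in earlier results of these data, by its difference between MSM and B6 and between the chromosome 4 consomic strain and B6, so those differences are described below without a test. Liver RNA came from 10-week-old males fasted for 4 h, from 30 strains with 2 males each and 2 arrays per male. The control strain was C57BL/6J (B6), and MSM/Ms (MSM) is inbred from wild mice of Japan. Each of the other 28 strains carries 1 piece of the MSM genome on the B6 background: a whole chromosome (for example Chr4), a centromeric (C) or telomeric (T) part of one, the Y chromosome or the mitochondrial genome (mt). No diet, drug or other treatment beyond the fast separated the groups. All animals are labelled as males and are called so here, although 1 library went against that label. The boundaries of the C and T parts are not in the labels, and 28 of the 30 strains, B6 included, have the B6 copy of chromosome 4.

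Cytochrome P450 4A enzymes of the endoplasmic reticulum put a hydroxyl group on the terminal carbon of medium- and long-chain fatty acids, and alcohol and aldehyde dehydrogenases then turn the product into a dicarboxylic acid that peroxisomes shorten. Cyp4a10 and Cyp4a14 are classical targets of the fatty acid receptor PPARA in mouse liver and rise in fasting. Cyp4a12a is the androgen-dependent, male-predominant member and a main arachidonic acid omega-hydroxylase of the mouse. In the reference annotation (GRCm38.p6) all 5 genes lie in a single cluster on chromosome 4, in the order Cyp4a12a, Cyp4a12b, Cyp4a14, Cyp4a10 and Cyp4a31, with Cyp4a30b and several pseudogenes between them.

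Not every member could be read alone. Cyp4a14 had 1 probe set (1423257_at), Cyp4a12a had 1 (1424352_at) and Cyp4a31 had 2 of its own (1440134_at, the one meant by Cyp4a31 from here on, and 1424943_at). Cyp4a10 was read only through a probe set annotated to both Cyp4a31 and Cyp4a10 (1424853_s_at), which cannot separate the pair. Cyp4a12b had no probe set in the annotation and has no value here, and whether the Cyp4a12a probe set also reads Cyp4a12b, its near-identical neighbour, was not tested. Probe set 1424943_at lay below the median of all values (7.417) in all 60 males, between 6.940 and 6.955, so it was left out of the tests, while the other 4 probe sets entered them.

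Signals are on a log2 scale as the authors normalized them, and the spread between males differs widely from probe set to probe set. A difference is therefore not read as a log2 fold change, and its size is not set against that of another probe set. To give a common yardstick, differences are also expressed in residual SDs, the spread between the 2 males of a strain pooled over all 30 strains. That SD was 0.23 for Cyp4a14, 0.21 for Cyp4a12a, 0.0036 for the probe set shared by Cyp4a10 and Cyp4a31 and 0.0042 for Cyp4a31. The 2 arrays of a male lay much closer than the males did, with a median gap of 0.045 for Cyp4a14.

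Hepatocyte markers were high in these livers, with medians between 11.99 and 14.80, and markers of kidney lay between 6.73 and 7.64. Those of pancreas lay between 7.20 and 8.25, those of fat cells between 6.97 and 7.65 and those of erythroid cells between 7.39 and 8.69. A pair of libraries stood apart from the rest. The library labelled Chr7T male 1 went against its male label: Xist, the transcript of the inactive X chromosome, was at 7.876 against 6.761 to 6.819 in the other 59 males, and the Y-linked Eif2s3y was at 6.761 against 6.887 to 6.930. In Chr9 male 1, 52 genes lay beyond all other males by more than the whole range of those males, against 6 in the library labelled Chr7T male 1. Except where said, results that rest on either library are given with and without it. In whole liver, fewer cells of a type and less RNA per cell cannot be told apart.

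Cyp4a14 separated the mice that carry the MSM copy of chromosome 4 from the rest. Its signal was 9.68 and 9.38 in the B6 males, 7.45 and 8.16 in the MSM males, and 7.71 and 7.69 in the Chr4 males. The 28 strains with the B6 copy of chromosome 4, B6 included, gave 56 males between 8.84 and 9.90 with a median of 9.55. All 4 males with the MSM chromosome 4 thus lay below all 56 others. The mean difference from B6 was −1.83 ± 0.22 (SE, 2 males against 2) in Chr4, or −8.11 residual SDs, and −1.73 ± 0.22 in MSM, or −7.63 residual SDs. These values were among those that led to the choice of the genes, and nothing is tested with them.

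**Figure D1:**
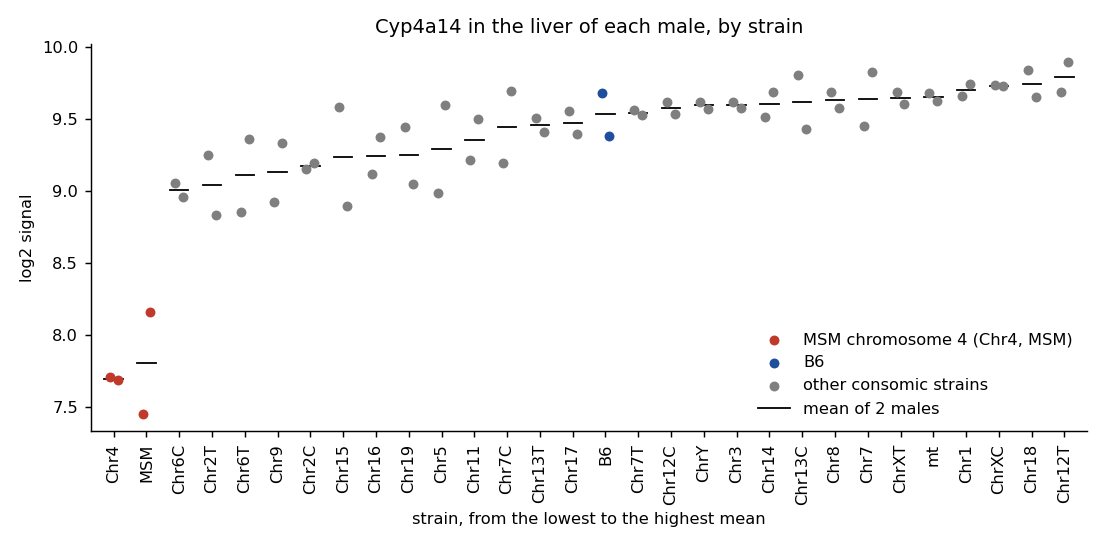
Log2 signal of Cyp4a14 (vertical axis) in each of the 60 males, by strain in the order of the strain mean (horizontal axis). Points are males, each the mean of 2 arrays, and the black line is the mean of the 2 males. The Chr4 and MSM males, in red, lie between 7.45 and 8.16, and the other 56 males between 8.84 and 9.90.

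Ordered by mean, Chr4 (7.70) and MSM (7.81) came first, followed after a gap of 1.20 by Chr6C (9.01), Chr2T (9.04), Chr6T (9.11), Chr9 (9.13) and Chr2C (9.17). B6 stood at place 16 of 30 with 9.53. Chr18 (9.75) and Chr12T (9.79) closed the order. Of the 29 steps from a strain to the next, only that from MSM to Chr6C had males that did not overlap, so neighbours in the order of the 28 strains with the B6 copy are not separated beyond the spread of the males. At the ends of it, the Chr6C males (9.06 and 8.96) lay below both Chr12T males (9.69 and 9.90). These strains were picked as the lowest and highest of the 28, so their gap is no evidence that strains differ. The moderated F over the 28 strains, given below, did not call Cyp4a14 (adjusted p = 0.174). The MSM males were 0.70 apart, and the 2 Chr4 males differed by 0.02. Because every animal with a low Cyp4a14 signal carries the MSM version of the gene itself, a lower transcript level and a poorer match of the MSM transcript to probes cannot be told apart in these arrays.

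The neighbours of Cyp4a14 in the cluster did not share that separation. Cyp4a12a was at 8.90 and 8.86 in the B6 males, 8.92 and 8.93 in the MSM males, and 8.88 and 8.93 in the Chr4 males. Over all 60 males it ranged from 7.31 to 8.96 with a median of 8.84, and the lowest value was that of the library labelled Chr7T male 1. The males with the MSM chromosome 4 therefore sat in the upper part of the range of this male-predominant gene, with a mean difference from B6 of 0.03 ± 0.21 (SE) in Chr4 and 0.05 ± 0.21 in MSM. That SE leans on the library labelled Chr7T male 1, without which the residual SD of Cyp4a12a was 0.065 in place of 0.21.

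The probe set shared by Cyp4a10 and Cyp4a31 read 12.084 and 12.078 in the B6 males, 12.071 and 12.086 in the MSM males, and 12.084 and 12.083 in the Chr4 males. Its whole range was 12.064 to 12.086. Counted from the lowest of the 60 males, the Chr4 males ranked 54 and 37, and the MSM males 3 and 59. Cyp4a31 itself read 8.618 and 8.610 in B6, 8.605 and 8.614 in MSM, and 8.614 and 8.612 in Chr4, within a range of 8.605 to 8.630. The lowest of all 60 values belonged to an MSM male, while the 2 Chr4 males fell between the B6 males. In residual SDs the Chr4 difference from B6 was 0.62 for the shared probe set and −0.33 for Cyp4a31, and the MSM difference was −0.71 and −1.17. Cyp4a14, chosen for its difference, is left out of the following. The males of Chr4 and B6 overlapped in each of the other tested member probe sets, where 52.9% of all tested probe sets had no overlap. Those of MSM and B6 overlapped in each but Cyp4a12a, where 74.1% of all had no overlap.

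**Figure D2:**
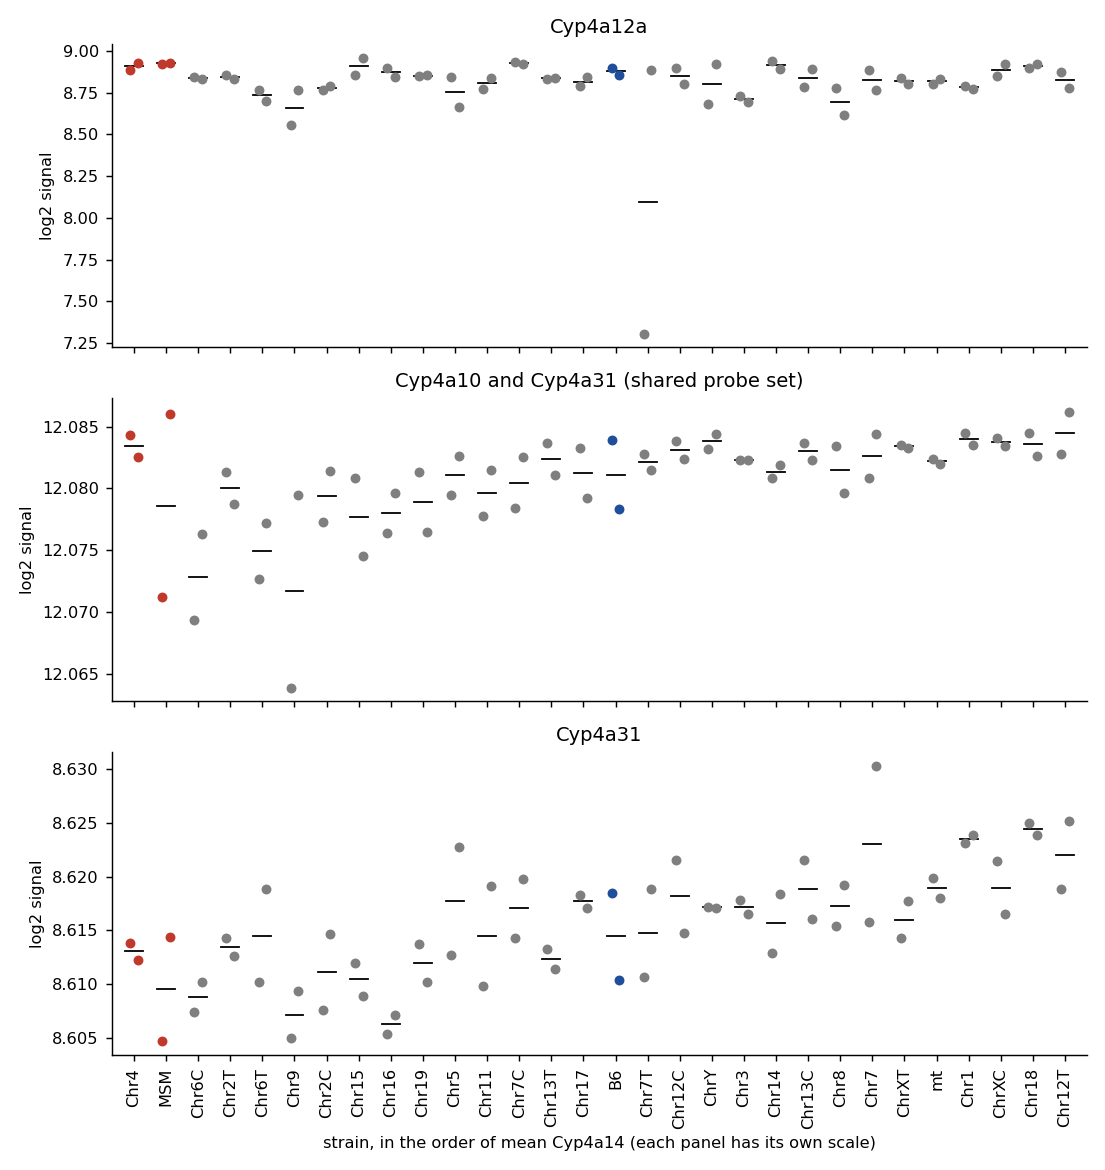
Log2 signal of Cyp4a12a, of the probe set shared by Cyp4a10 and Cyp4a31, and of Cyp4a31 in each male (points) with the mean of the 2 males (black line), by strain in the order of mean Cyp4a14. Each panel has its own vertical scale. Chr4 and MSM (red) lie within the range of the other strains, except for an MSM male that is the lowest point of the Cyp4a31 panel, and 1 point, the library labelled Chr7T male 1, lies far below the others in the Cyp4a12a panel at 7.31.

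The comparison of Chr4 with MSM asks whether the rest of the MSM genome adds to what goes with its chromosome 4. Cyp4a14 was chosen for being low in both, so its difference of −0.11 is given without a test; it was −0.46 without MSM male 1 and 0.24 without MSM male 2. None of the other 3 member probe sets was called different (limma, Benjamini-Hochberg adjusted p from 0.386 to 0.965; 0 also at an unadjusted p below 0.05), where 19.3% of all tested probe sets were called. Without MSM male 2, the shared probe set was called higher in Chr4 than in MSM, by 0.012 (adjusted p = 0.0335).

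Among the 27 consomic strains that have the B6 copy of chromosome 4, no member was called different from B6. Of 108 tests (4 probe sets in 27 strains) 0 passed an adjusted p of 0.05 in limma, against 0.344% of all tests of these strains, and 8 had an unadjusted p below 0.05, against 7.84% over all probe sets. The males of strain and B6 did not overlap in 32 of the 108 (43.9% over all probe sets). The members differed in this: 16 of 27 for Cyp4a12a, 15 of them lower than B6, 8 for Cyp4a14, 6 for Cyp4a31 and 2 for the shared probe set. All these comparisons share the 2 B6 males. Leaving out Chr7 male 1, Chr7T male 2 or Chr9 male 2 gave 1 call each, the latter 2 omissions leaving only a library that stood apart. With all 120 arrays and the male as a random effect 6 of the 108 were called. That fit took 1 correlation of 0.3 between the arrays of a male for all probe sets. In the members the arrays of a male lay closer than that. The fit therefore counts them too nearly as separate animals, and its p is too small for the members. With the mean of B6 and all consomic strains free of that chromosome as the reference 2 of the 108 were called. The 95% interval of a Cyp4a14 difference, without adjustment for the number of probe sets, reached 0.46 to either side, or 2.02 residual SDs. With 2 males a strain, smaller differences were not detectable, and larger ones could also go uncalled. That of Cyp4a14 in Chr6C was −0.52 (limma, adjusted p = 0.484).

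The 8 values with an unadjusted p below 0.05 were spread over different members and strains. Cyp4a14 was lowest in Chr6C, at 9.06 and 8.96, and in Chr2T, at 9.25 and 8.84. Their differences from B6 were −0.52 ± 0.22 (SE; adjusted p = 0.484) and −0.49 ± 0.22 (adjusted p = 0.876). In both strains the 2 males lay below the 2 B6 males. The lowest adjusted p of Cyp4a14 was in Chr9 (0.344, difference −0.40 ± 0.22), and without Chr9 male 1 it was 0.960 there (−0.20 ± 0.27). The probe set shared by Cyp4a10 and Cyp4a31 was also low in Chr6C, at 12.069 and 12.076, and it was lowest in Chr9, at 12.064 and 12.080. Its difference in Chr9 was −0.0094 ± 0.0036 (adjusted p = 0.170), and without Chr9 male 1, the library that stood apart, it was −0.0016 ± 0.0037 (adjusted p = 0.979). Cyp4a31 was the only member with high values among the 8: Chr18, at 8.625 and 8.624, Chr1, at 8.623 and 8.624, and Chr7, at 8.616 and 8.630. The adjusted p was 0.439 in Chr18, 0.753 in Chr1 and 0.281 in Chr7.

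The largest difference of Cyp4a12a came from the library that went against its label. The libraries labelled Chr7T read 7.31 and 8.88, and the difference from B6 was −0.78 ± 0.21 (SE; adjusted p = 0.165). Without the library labelled Chr7T male 1 it was 0.0051 ± 0.079 (adjusted p = 0.9999), and the residual SD of Cyp4a12a fell from 0.21 to 0.065. In that smaller set no member was called either. The lowest adjusted p there was that of Cyp4a12a in Chr9, −0.22 ± 0.065 (adjusted p = 0.0925), where the males read 8.56 and 8.77. The lower of these is Chr9 male 1, the other library that stood apart. With Chr9 male 1 alone left out, and the library labelled Chr7T male 1 back in, the difference was −0.11 ± 0.26. That wider SE leans on the library labelled Chr7T male 1, and a fit without both libraries is not given here.

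A test over all 28 strains with the B6 chromosome 4 asked whether the members vary among strains at all. None of the 4 probe sets passed (moderated F, limma), where 5.99% of all probe sets did. The adjusted p was 0.0899 for Cyp4a31, 0.174 for Cyp4a14, 0.354 for the shared probe set and 0.726 for Cyp4a12a, and the unadjusted p was below 0.05 for Cyp4a31 (0.00771) and Cyp4a14 (0.0228). Without the library labelled Chr7T male 1 the unadjusted p of Cyp4a12a was 0.0241 as well (adjusted p = 0.175), and again none of the 4 passed. With all 120 arrays and the male as a random effect, all 4 passed, the highest adjusted p being 0.000692. As said above, that fit counts the arrays of a male too nearly as separate animals for the members, so this p is too small.

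Chromosomes 2, 6, 7, 12, 13 and X were each split into a centromeric and a telomeric strain, which allows a direct test between the parts. Of 24 such tests of the members 0 were called (limma; 1 at an unadjusted p below 0.05), against 0.186% of all tests. The lowest adjusted p was that of Cyp4a12a on chromosome 7, where Chr7C exceeded Chr7T by 0.83 ± 0.21 (SE; adjusted p = 0.0894). Without the library labelled Chr7T male 1 the difference was 0.046 ± 0.079 (adjusted p = 0.9996), and without Chr7T male 2 it was 1.62 and called. The same difference was called after quantile normalization (adjusted p = 0.0251) and with all 120 arrays. For Cyp4a14, Chr6C and Chr6T, both in the lower part of the order, differed by −0.10 ± 0.22 (adjusted p = 1).

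Apart from the MSM chromosome 4, the PPARA-type members moved together from male to male. Over the 56 males of the 28 strains with the B6 chromosome 4, Cyp4a14 correlated with the shared probe set at Pearson r = 0.82 (Spearman rho = 0.87) and with Cyp4a31 at r = 0.77 (rho = 0.80). For both pairs each permutation p was 1e-05, the smallest that 100000 resamples can give, and at most 2e-05 after Benjamini-Hochberg adjustment over the 10 pairs of member probe sets. Without the 2 males farthest from the median of Cyp4a14 the r was 0.82 and 0.79, and without the 2 libraries that stood apart 0.85 and 0.77. The 2 probe sets of Cyp4a31 correlated with each other at r = 0.87 (rho = 0.86), although the dimmer one lay below the median of all values in every male. Males of a strain share their genotype and all males the same array platform, so the points are not fully independent.

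The relation also held between the 2 males of a strain. With each strain's mean removed, r was 0.73 between Cyp4a14 and the shared probe set and 0.71 between Cyp4a14 and Cyp4a31. The male with more Cyp4a14 also had more signal of the shared probe set in 25 of the 28 strains, and more Cyp4a31 in 24. Over the 28 strain means r was 0.86 and 0.80.

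Cyp4a12a did not follow the other members. Its r over the 56 males was −0.04 with Cyp4a14 (rho = 0.03; permutation p = 0.80 and 0.82, adjusted 0.87 and 0.91), 0.02 with the shared probe set and 0.11 with Cyp4a31. Without the 2 libraries that stood apart these were −0.10, −0.03 and −0.16. The male with more Cyp4a14 had more Cyp4a12a in 10 of 28 strains. With strain means removed and the 2 libraries that stood apart left out, r of Cyp4a12a was −0.44 with Cyp4a14, −0.18 with the shared probe set and −0.42 with Cyp4a31.

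**Figure D3:**
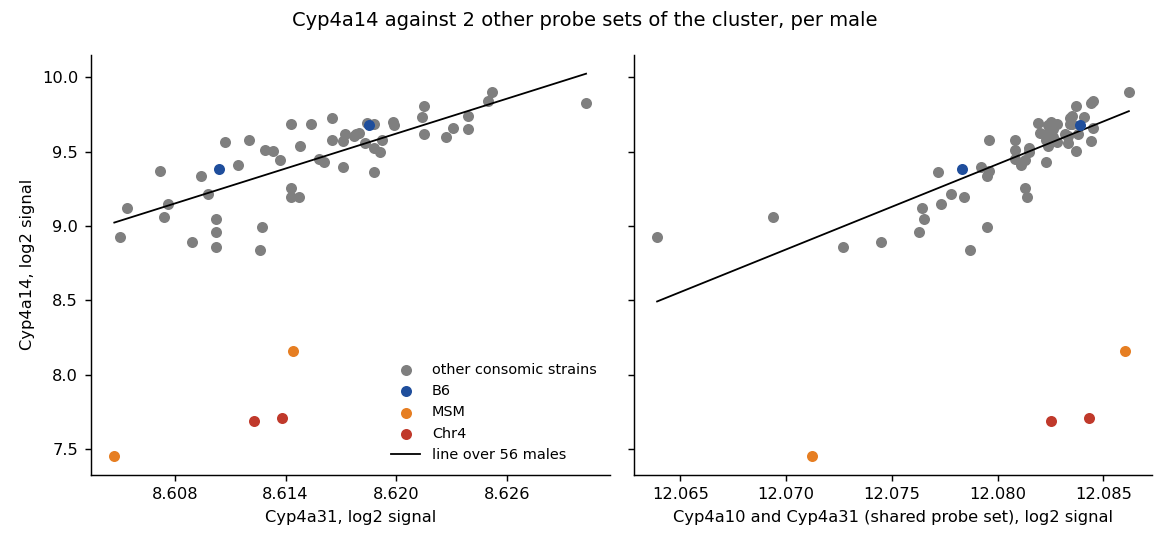
Log2 signal of Cyp4a14 (vertical axis) in each of the 60 males against that of Cyp4a31 (left) and of the probe set shared by Cyp4a10 and Cyp4a31 (right), with the least-squares line over the 56 males with the B6 chromosome 4. The 56 males lie within 0.50 of the line, and the MSM and Chr4 males have residuals from −1.95 to −1.25. Cyp4a14 was chosen for its low signal in MSM and Chr4, which these residuals largely restate.

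The males with the MSM chromosome 4 lay off these relations. Cyp4a14 was chosen for its low signal in these males, and the lines were fitted without them. Their distance from the lines therefore largely restates that choice, and nothing is tested with it. Measured from the line of Cyp4a14 on Cyp4a31, the 56 males had residuals from −0.49 to 0.31. The MSM males had −1.57 and −1.25, and the Chr4 males −1.67 and −1.63. From the line on the shared probe set, the 56 males had residuals from −0.50 to 0.43, the MSM males −1.46 and −1.60, and the Chr4 males −1.95 and −1.87. The 2 MSM males, which differed by 0.70 in Cyp4a14, differed in the same direction in the shared probe set and in Cyp4a31.

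PPARA is a nuclear receptor that switches on fatty acid oxidation in the fasted liver, and 36 of its known targets outside the Cyp4a family were listed to set the members against. Of these 32 could be tested. Over the 56 males with the B6 chromosome 4, all 32 correlated above 0 with Cyp4a14, with a median r of 0.41, where 47.62% of all 11946 genes did and the median was −0.01. The thioesterase Acot1 stood highest (r = 0.71), the long-chain acyl-CoA dehydrogenase Acadl followed at 0.67, and the hormone Fgf21 stood lowest (r = 0.10). With the shared probe set 31 of 32 were above 0 (median 0.37), with Cyp4a31 32 (median 0.33), and with Cyp4a12a 24 (median 0.10; 22 and 0.18 without the 2 libraries that stood apart). Ppara itself had r = 0.06 with Cyp4a14. Leaving out the 2 libraries that stood apart, all 32 stayed above 0 with Cyp4a14, with a median of 0.43.

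The same listed genes were then set against the members within strains. With strain means removed, over the 26 strains in which neither male stood apart, 27 of the 32 targets had r above 0 with Cyp4a14 (median 0.32) and 32 with the shared probe set (median 0.43), against 49.05% and 51.17% of all genes. With Cyp4a31 24 of the 32 were above 0 (median 0.29), and with Cyp4a12a 16 (median −0.01).

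In Chr4, where Cyp4a14 was low, the other PPARA targets were not. None of the 32 was called higher or lower than B6 (limma, adjusted p below 0.05; 0.193% of all genes were called higher and 0.385% lower), and 27 of the 32 differences were positive, with a median of 0.93 residual SDs against 0.19 over all genes. In MSM, 1 of 32 was called higher and 5 lower, against 14.1% and 10.1% of all genes, and 14 differences were positive. The 4 furthest from 0 in units of their SE were Vnn1, a pantetheinase (−0.43 ± 0.049), the peroxisomal thiolase Acaa1b (−0.0017 ± 0.00022), the thioesterase Acot4 (0.027 ± 0.0038) and the fatty aldehyde dehydrogenase Aldh3a2 (−0.016 ± 0.0027), with SEs from 2 males against 2. After quantile normalization the MSM count was 5 higher and 3 lower, and the share of higher among all calls in MSM went from 57.6% to 96.5%. The count was 2 higher and 3 lower if B6 male 1 was left out, 3 and 3 if MSM male 1 was, and 1 and 3 if MSM male 2 was. Between Chr4 and MSM, 8 targets were called different (19.6% of all genes were), 7 of them higher in Chr4 and 1 lower. Both contrasts with B6 share the 2 B6 males, and those with MSM the 2 MSM males.

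Markers of other liver cell types moved in MSM too, where 14.1% of all genes were called higher and 10.1% lower. All 6 markers of Kupffer cells, the resident macrophages of the liver, had differences from B6 below 0 in MSM, and 3 were called lower (Csf1r, Clec4f and Vsig4). Their summed log2 signal was 52.79 in both B6 males, 52.78 in both Chr4 males and 52.72 in both MSM males. Of the 3 tested markers of cholangiocytes, which line the bile ducts, 2 were called higher in MSM (Krt23 and Epcam), and Krt19 and Krt7 lay below the median of all values. The summed signal of the 5 cholangiocyte markers was 37.64 in both B6 males, 37.66 to 37.67 in Chr4 and 37.67 to 37.68 in MSM. Of the other cell type markers, Lyve1 (endothelial) was called higher in MSM, and Clec4g (endothelial), Lrat (stellate) and Alas2 (erythroid) lower. In Chr4 no Kupffer or cholangiocyte marker was called, and the Kupffer differences were below 0 in 6 of 6. The median difference from B6 over all genes was 0.59 residual SDs in MSM and 0.19 in Chr4. The part of these cell types in the MSM differences of the lists was not tested.

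The strains with the B6 chromosome 4 gave few calls in the same list. Over the 27 strains, 3 of 864 tests were called higher and 8 lower, against 0.170% and 0.184% of all tests. Among the called genes, 4 lie on the substituted chromosome: Aldh3a2 was lower in Chr11 (−0.014 ± 0.0027), Acot4 higher in Chr12T (0.034 ± 0.0038), Acaa1b lower in Chr9 (−0.0011 ± 0.00022) and Fgf21 higher in Chr7 (0.10 ± 0.026). Vnn1, a gene of chromosome 10, was lower in Chr6C (−0.28 ± 0.049) and Chr6T (−0.23 ± 0.049), which were also low in the order of Cyp4a14. Chr5 had lower Aldh3a2, Acaa1b and the very-long-chain acyl-CoA dehydrogenase Acadvl, Acadvl was also lower in Chr9, and the kinase Pdk4 was higher in Chr7. The Chr9 calls of Acaa1b and Acadvl include Chr9 male 1, which was the lowest of 60 in 6 of the 32 targets. Their values without that library are not given here. In Chr6C, with the lowest mean Cyp4a14 of the 28 strains, 2 of the 32 differences were positive, and in Chr12T, with the highest, 20 were. Chr2C and Chr2T, also low in the order of Cyp4a14, had 0 each. The list did not follow that order throughout: Chr1 and ChrXC, near its upper end, had 5 and 8. Over the 27 strains 241 of the 864 differences were positive. All these differences share the B6 males, and without B6 male 1 0 of the 864 were called lower and 1 higher. Without Chr5 male 2 the lower calls were 5, and without B6 male 2 or Chr7 male 2 the higher calls were 1.

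Genes with male-biased expression in mouse liver took the place of the PPARA targets beside Cyp4a12a. All 12 tested of 15 listed male-biased genes had r above 0 with Cyp4a12a over the 56 males, with a median of 0.60, and none of 7 tested female-biased genes did, with a median of −0.57. Over all genes 47.84% were above 0. These values lean on the library labelled Chr7T male 1, which was the lowest of 60 in 6 of the 12 male-biased genes and the highest in 5 of the 7 female-biased genes. Without it and Chr9 male 1, the counts were again 12 of 12 and 0 of 7, with a median r of 0.48 for the male-biased list and −0.28 for the female-biased list. With strain means removed over the 26 strains, 12 of 12 male-biased genes (median 0.58) and 2 of 7 female-biased genes (median −0.37) were above 0 with Cyp4a12a. With Cyp4a14, also with strain means removed, they were 0 of 12 (median −0.52) and 7 of 7 (median 0.40). Over the 56 males the values with Cyp4a14 were weaker, at 1 of 12 (median −0.10) and 6 of 7 (median 0.13). Without the 2 libraries that stood apart those were 0 of 12 (median −0.23) and 6 of 7 (median 0.09).

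**Figure D4:**
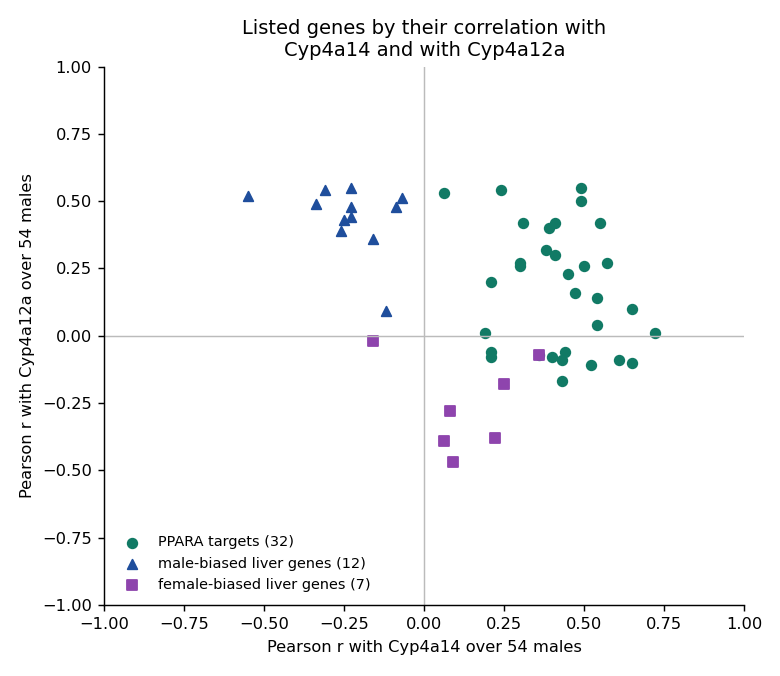
Each listed gene by its Pearson r with Cyp4a14 (horizontal axis) and with Cyp4a12a (vertical axis) over 54 males, those with the B6 chromosome 4 less the 2 libraries that stood apart. All 32 PPARA targets (circles) lie right of 0, and all 12 male-biased genes (triangles) lie above 0 and left of 0.

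The male-biased list was also compared in the 2 strains with low Cyp4a14. Mup3, a major urinary protein gene that also lies on chromosome 4, was lower than B6 in Chr4 (−0.37 ± 0.041, SE) and in MSM (−0.41 ± 0.041). It was the only listed gene of the 12 called in Chr4, where 0.385% of all genes were called lower. MSM had 1 higher and 3 lower (14.1% and 10.1% of all genes), among them Mup3 and the steroid dehydrogenase Hsd3b5 (−1.62 ± 0.49). Hsd3b5 was also lower in Chr3 (−2.28 ± 0.49), the chromosome it lies on.

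The enzymes that act with or after the Cyp4a proteins were counted from lists as well. The 3 tested genes that deliver electrons to P450 enzymes gave no call in Chr4, MSM or the 27 strains. Of 6 tested members of other Cyp4 subfamilies, 0 were called in Chr4 and in MSM, and 1 over the 27 strains, Cyp4b1 lower in the mt strain (−0.0014 ± 0.00026). Of 15 tested genes of the route from omega-hydroxylated fatty acid to shortened dicarboxylic acid, 0 were called in Chr4, while MSM had 2 higher and 6 lower. Over all genes these shares were 0.193% higher and 0.385% lower in Chr4, and 14.1% and 10.1% in MSM. The furthest from 0 in MSM was the alcohol dehydrogenase Adh4 (−0.052 ± 0.0062), which was also lower in Chr3 (−0.038 ± 0.0062), the chromosome it lies on.

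Around the cluster, the share of genes called was not higher than on the rest of chromosome 4. Of the 15 tested genes on either side in the reference order, 2 of 30 (6.67%) were called in Chr4 and 6 (20%) in MSM. Of the other 725 tested genes of chromosome 4, 8.28% and 27.3% were. Over all genes, 0.193% were called higher and 0.385% lower in Chr4, and 14.1% and 10.1% in MSM. Faah, the hydrolase of fatty acid amides, was the only one of the 30 called in both, at −0.0011 ± 0.00024 in Chr4 and −0.00078 ± 0.00024 in MSM. Cyp4b1, the tested gene next to the cluster, was called in neither, at 0.00034 ± 0.00026 (adjusted p = 0.692) and 0.00054 ± 0.00026 (adjusted p = 0.135). With any one of the 2 B6 or 2 Chr4 males left out, the Chr4 count was 0, and with any one of the 2 B6 or 2 MSM males left out the MSM count was 2 or 3.

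The genes most like each member were found by Pearson r over the means of the 28 strains, as a description. Those nearest to Cyp4a14 were Bcl2l13, a mitophagy receptor (r = 0.80), Elmod3 (0.77), the bicarbonate transporter Slc4a4 (0.77), Acot1 (0.75) and Acadl (0.74). For the shared probe set they were Bcl2l13 (0.73), the mitochondrial trifunctional protein subunit Hadhb (0.73), the retinol saturase Retsat (0.72), Elmod3 (0.69) and the enoyl-CoA isomerase Eci2 (0.65). That probe set is also the brightest of Cyp4a31. By the probe set of Cyp4a31 alone, looked at in addition, the nearest were Wrnip1 (0.71), Zfand6 (0.69), Rab30 (0.69), Elmod3 (0.69) and Trmt44 (0.66). Elmod3 stood among the 5 nearest of all 3.

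For Cyp4a12a the nearest were Cyp2d9, a male-specific P450 (r = 0.92), the complement genes C6 (0.78) and C8a (0.78), Chpt1 (0.77) and the fatty acid elongase Elovl3 (0.76). This order rests on the 2 libraries that stood apart. Without them the values were 0.53 for Cyp2d9, 0.42 for C6, 0.03 for C8a, 0.63 for Chpt1 and 0.38 for Elovl3.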

How the data were processed

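The authors' deposited table holds log2 signals of 45037 probe sets on 120 arrays, normalized between arrays (array medians 7.416 to 7.417). How probes were summarised and the base of the logarithm were not given in the sources used here; from the range (6.34 to 14.82) the base was taken as 2. The 2 arrays of a male were averaged, the animal number in the label being taken as the male. Arrays carry no counts, and the number of males limits the precision. limma 3.58.1 (R 4.3.3) fitted 1 mean per strain to the 60 males (30 residual degrees of freedom), and p was adjusted (Benjamini-Hochberg) within each contrast over the 22551 probe sets above 7.417 in at least 2 males. A call is an adjusted p below 0.05. Lists used 1 probe set per gene, that with the highest mean. Correlations and their permutation tests used numpy 2.4.6, and scipy 1.17.1 adjusted them. The fit was tested on simulated data. The named genes are all member probe sets, up to 4 called genes of a list per contrast by the ratio of difference to SE, the 5 most alike genes by r, and neighbours called in both strains. Members and lists were chosen with earlier results of these data known. The genes that showed which libraries stand apart (Xist, Eif2s3y), and the ends of a range, were named after their values were seen. Symbols and gene order come from the annotation of the platform and the RefSeq table of GRCm38.p6. Alternatives were quantile normalization, no filter, all arrays with the male as a random effect, robust moderation, other references and minimum sizes, other probe sets, and each male left out.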

Additional observations from a re-analysis of the deposited data

How the results depend on the processing

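With 2 males a strain, small differences of the members were not detectable, and the signal of an array has no detection limit to set beside it here. The separation of Cyp4a14 kept its size under quantile normalization (−1.83 in Chr4, −1.72 in MSM). With each male of B6, MSM and Chr4 left out in turn, its difference from B6 ran from −1.99 to −1.68 in Chr4 and from −2.08 to −1.38 in MSM. For the other members over the same omissions, the MSM and Chr4 differences ran from 0.028 to 0.069 and from 0.0067 to 0.052 (Cyp4a12a), from −0.0099 to 0.0048 and from −0.00056 to 0.0050 (shared probe set), and from −0.0097 to −3.4e-05 and from −0.0054 to 0.0026 (Cyp4a31). The cause of the changes that follow was not tested.

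For the members, the fit on all 120 arrays counts the arrays of a male too nearly as separate animals. With all 120 arrays and the male as a random effect, 6 of 108 tests of the members against B6 were called. In that fit 4 of 4 probe sets varied among the strains and 1 of 24 differences between chromosome parts was called. Of the PPARA targets 5 were then higher in MSM, and 6 higher and 36 lower over the 27 strains. Of the neighbours 2 were called in both Chr4 and MSM. With the other reference 2 of 108 tests were called. After quantile normalization 1 difference between chromosome parts was called, 5 PPARA targets were higher and 3 lower in MSM and 2 lower over the 27 strains, and 1 neighbour was called in Chr4 and 25 in MSM, where the share of higher among all calls was 96.5% against 57.6%. In Chr4 that share was 74.7% against 27.4%. The median difference from B6 over all probe sets went from 1.28e-05 to 0.00119 in MSM and from 2.86e-06 to 0.000136 in Chr4. Without a filter, 1 PPARA target was higher over the 27 strains and 1 neighbour called in Chr4. With the most variable probe set of a gene, 2 PPARA targets were higher and 9 lower in MSM, and 4 neighbours were called in Chr4 and 3 in both. With 30 genes on each side, 7 were called in Chr4, 21 in MSM and 6 in both.

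With each male left out in turn, the calls of the members against B6, among the strains, between Chr4 and MSM and between chromosome parts ran from 0 to 1. The PPARA counts ran from 1 to 3 higher and 3 to 5 lower in MSM, and from 1 to 4 higher and 0 to 12 lower over the 27 strains, and were 0 in Chr4. The neighbours ran from 0 to 4 in Chr4, 2 to 8 in MSM and 0 to 3 in both, the 4 in Chr4 without a male of Chr5 or Chr9 and the 3 in both without a male of Chr9. Robust moderation and the fit on a strain and B6 alone moved none of the counts they were run on by over 1.5 times. A minimum difference of 0.1 was applied only to the calls of the members against B6. Those were 0 already, so it could not change them. No paired analysis was possible because animal numbers are unique to a strain and the last number of a label counts the arrays of a male.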
